A study of Mus musculus with 6 samples.

Results

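The immediate-early response genes are a set of 10 genes fixed by name: the AP-1 subunits Fos, Fosb, Fosl1, Jun and Junb, the zinc finger factor Egr1, Ier2, Ier3, the phosphatase gene Dusp1 and the RNA-binding protein gene Zfp36. Each of the 10 had 1 probeset of its own, so all 10 of the 19938 genes compared could be read, and no filter on dim genes was applied. RNA came from mouse embryonic stem (ES) cells that carried the fluorescent reporter 2C::tomato, grown on gelatin and sorted by fluorescence into 2C::tomato+ (positive) and 2C::tomato- (negative) cells. There were 3 positive and 3 negative arrays, and each group held replicate numbers 1, 2 and 3. The titles mark all 6 samples as WT. The protocol names vehicle or 4OHT to delete Kdm1a without saying which of them these samples received, so a drug shared by all 6 cannot be told from the labels. As background, reporters of this name place tomato under the MERVL repeat, a retroviral element transcribed at the 2-cell stage. The labels name neither the number of ES clones nor what a replicate number marks, and they do not say that the arrays of a group came from separate cultures. P-values therefore measure the spread between these arrays, which may be technical. Those between replicate numbers measure only how unevenly the difference between positive and negative arrays varied across the numbers.

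Immediate-early genes are transcribed within minutes of a growth factor, serum or stress signal, without new protein synthesis. Kinases of the ERK and p38 pathways act on factors already bound at their promoters, among them serum response factor (SRF) with its ternary complex partners, and CREB at cyclic AMP response elements. Fos and Jun family proteins pair as AP-1, Egr1 binds GC-rich sites, and Dusp1 and Zfp36 limit the response, by dephosphorylating MAP kinases and by destabilising AU-rich mRNAs. Handling of live cells, enzymatic dissociation among it, is known to induce the same genes.

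The upstream sequences of Fos, Fosb, Jun and Zfp36 are shown because these 4 genes were highest in both arrays of replicate number 2. RefSeq promoter windows of assembly GRCm38.p6 were matched by symbol for 7 of the 10 genes: Fos, Fosb, Jun, Junb, Ier3, Dusp1 and Zfp36. Each line gives the 250 bases before the start that the promoter window uses, 5′ to 3′ on the gene's strand. For Fosb that start lies inside the annotated span of the gene, chr7:19302696-19310118. The TGACG and GCGNGGGCG matches of Fosb therefore lie within that span. Capitals mark TGACG (the core of the cyclic AMP response element), TGACATCA (the variant known from the Jun promoter), GCGNGGGCG (the Egr1 site), GGGCGG (the Sp1 site), TATAAA and the CArG box of SRF, read on both strands.
Fos, chr12:85473640-85473889, + strand: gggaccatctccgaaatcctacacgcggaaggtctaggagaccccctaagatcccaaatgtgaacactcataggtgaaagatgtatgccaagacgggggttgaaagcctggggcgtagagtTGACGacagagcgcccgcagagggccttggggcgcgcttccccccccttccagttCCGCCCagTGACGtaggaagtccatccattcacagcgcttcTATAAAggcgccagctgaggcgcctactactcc
Fosb, chr7:19310046-19310295, - strand: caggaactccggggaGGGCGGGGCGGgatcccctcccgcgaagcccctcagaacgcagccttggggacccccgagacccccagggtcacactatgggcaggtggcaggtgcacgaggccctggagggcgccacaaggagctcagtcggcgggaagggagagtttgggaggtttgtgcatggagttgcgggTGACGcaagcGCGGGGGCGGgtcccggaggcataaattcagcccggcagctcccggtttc
Jun, chr4:95052223-95052472, - strand: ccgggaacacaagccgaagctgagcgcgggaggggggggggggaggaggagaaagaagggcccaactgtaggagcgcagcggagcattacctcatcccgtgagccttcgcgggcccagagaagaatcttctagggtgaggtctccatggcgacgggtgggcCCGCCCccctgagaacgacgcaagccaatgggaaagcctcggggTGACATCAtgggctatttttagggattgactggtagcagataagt
Zfp36, chr7:28379229-28379478, - strand: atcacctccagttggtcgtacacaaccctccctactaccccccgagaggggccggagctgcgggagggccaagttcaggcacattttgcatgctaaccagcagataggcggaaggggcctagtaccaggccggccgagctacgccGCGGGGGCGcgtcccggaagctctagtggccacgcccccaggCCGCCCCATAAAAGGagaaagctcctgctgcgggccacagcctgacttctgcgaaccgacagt
Fos held TGACG beginning 66 and 129 bases before its start and a TATAAA beginning 33 bases before it. Jun held TGACATCA beginning 45 bases before its start, and Fosb held TGACG at 60 and GCGNGGGCG at 50, the last overlapping a GGGCGG. Zfp36 held a CArG box at 58 and GCGNGGGCG at 105, and its reverse-strand GGGCGG overlapped the CArG box by a base. TGACG was in 4 of the 7 windows, TGACATCA in 1 and GCGNGGGCG in 2, against 17.8%, 2.93% and 4.7% of all 32851 windows of this length. A CArG box was in 1 of the 7 and in 1.47% of all windows, TATAAA in 1 and 12.4%, and GGGCGG in 6 and 32.7%. The whole palindrome TGACGTCA was in 1 of the 7, that of Dusp1, and in 1.55% of all. TGANTCA, a pattern with any middle base that includes the AP-1 site, was in 0 of the 7 and 6.75%. These matches describe letters in the windows and show no binding. Bases outside these 250 were not searched, so a motif absent here may lie farther upstream.

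Across the series, arrays correlated at r between 0.969 and 0.995 over genes. The ES cell markers averaged a log2 level of 11.89 to 12.28 per positive array and 12.08 to 12.36 per negative array over 9 of 9 genes. Of 10 listed markers of 2C-like cells 9 were measured. All 9 were higher in positive cells without overlap, as were 4.08% of all genes. Their mean was 8.05 to 11.99 in positive and 6.27 to 6.62 in negative arrays, and was highest in positive array 2. The arrays of replicate number 2 stood apart from the other 4. By the moderated F test over replicate numbers, 5.65% of genes passed, against 0 genes between positive and negative cells. Results below that rest on replicate number 2 are given beside the values of both groups.

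Of the 10 means, 9 lay lower in positive than in negative cells, and no member passed the test between them. The question here was whether cells that express the reporter differ in these genes from those that do not. With limma (lmFit and eBayes, adjusted over all 19938 genes), 0 members and 0 genes passed (0% called, smallest adjusted p 0.910). The 9 measured markers of 2C-like cells, all higher without overlap, did not pass either (Gm5662 at 5.34, limma adjusted p = 0.910). Not passing this fit therefore does not show that a gene is equal in the groups. Before adjustment 878 genes (4.4%) had a p under 0.05, 2.46% of all genes being lower in positive cells, and among the members Junb alone did, lower. The median log2 difference of the members, positive minus negative, was -0.27, against -0.04 over all genes, of which 60.2% lay below 0. The members' median was -0.06 without negative array 2, where 6 of 10 lay below 0. Without both arrays of number 2 it was -0.21, and 9 of 10 lay below 0.

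**Figure D1:**
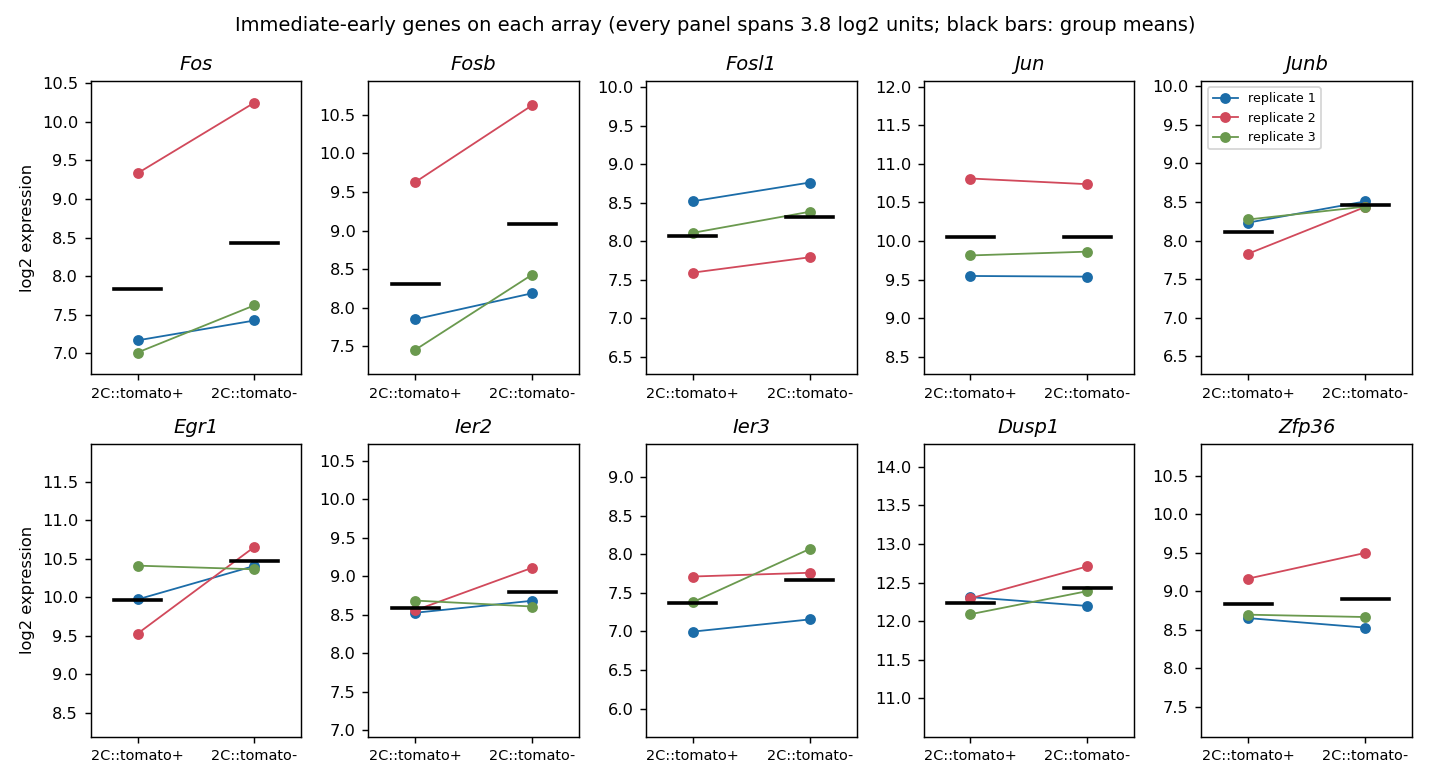
Log2 expression (y axis) of each of the 10 genes in positive (left) and negative (right) cells; each coloured line joins the positive and negative array of 1 replicate number, and black bars are group means over 3 arrays. Replicate 2 lies on top for Fos, Fosb, Jun and Zfp36 in both groups and at the bottom for Fosl1.

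Among the Fos family, Fos, the classical partner of Jun in AP-1, had log2 levels of 7.17, 9.33 and 7.01 in positive arrays 1, 2 and 3, against 7.42, 10.25 and 7.62 in negative arrays 1, 2 and 3. In both groups array 2 was more than 2 log2 units above the other arrays, and the groups overlap. Fos averaged 7.84 ± 1.30 in positive and 8.43 ± 1.58 in negative cells (SD, n = 3 each), a log2 difference of -0.60 (SE 0.90, limma adjusted p = 0.954). Within the same-numbered pairs it differed by -0.26, -0.92 and -0.61. Without negative array 2, with positive array 2 kept, the difference was 0.31. Without both arrays of number 2 it was -0.44.

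Fosb, a Fos paralogue that pairs with Jun proteins in the same way, followed Fos closely. Its log2 levels were 7.85, 9.63 and 7.45 in positive arrays 1, 2 and 3, against 8.19, 10.62 and 8.43 in negative arrays. Each positive array lay below the negative array of its number, and the groups overlap through array 2. Fosb averaged 8.31 ± 1.16 in positive and 9.08 ± 1.34 in negative cells (SD, n = 3 each). The log2 difference of -0.77 (SE 0.78, limma adjusted p = 0.920) was the 10th lowest of all 19938 genes. It became 0.0026 without negative array 2 and -0.66 without both arrays of number 2. The pairs differed by -0.34, -0.997 and -0.98.

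Fosl1 encodes Fra-1, a Fos relative without the strong activation domain of Fos and known as a later AP-1 subunit. Its log2 levels were 8.52, 7.59 and 8.11 in positive arrays 1, 2 and 3, against 8.76, 7.79 and 8.38 in negative arrays. Array 2 was the lowest of both groups, the reverse of Fos and Fosb, and the groups overlap. The difference was -0.24 (SE 0.31, limma adjusted p = 0.940), with pairs at -0.24, -0.20 and -0.27. It was 0.0016 without positive array 2 and -0.26 without both arrays of number 2.

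Of the Jun family, Jun, the main partner of Fos, did not separate the groups. Its log2 levels were 9.55, 10.81 and 9.81 in positive arrays 1, 2 and 3, against 9.54, 10.74 and 9.86 in negative arrays. The arrays matched by number, with array 2 highest and array 1 lowest in both groups. The difference was 0.01 (SE 0.41, limma adjusted p = 0.999), and the pairs differed by 0.01, 0.07 and -0.05.

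Junb, a Jun paralogue that can oppose Jun at shared sites, was the member whose groups did not overlap. Its log2 levels were 8.23, 7.83 and 8.27 in positive arrays 1, 2 and 3, against 8.51, 8.43 and 8.44 in negative arrays. All 3 negative arrays lay within a narrow band, and positive array 2 was the lowest. The groups averaged 8.11 ± 0.25 in positive and 8.46 ± 0.041 in negative cells (SD, n = 3 each), a difference of -0.35 (SE 0.14, limma adjusted p = 0.910). Lower levels in positive cells without overlap were found for 1 of 10 members and for 7.15% of all genes, and higher levels without overlap for 0 members and 4.08% of genes. Without positive array 2 the difference of Junb was -0.21.

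Egr1, a zinc finger factor of the same early wave, had log2 levels of 9.97, 9.53 and 10.41 in positive arrays 1, 2 and 3, against 10.41, 10.65 and 10.36 in negative arrays. Positive array 2 was the lowest of the 6 arrays and negative array 2 the highest, while the positive and negative arrays of number 3 differed by 0.05. The groups averaged 9.97 ± 0.44 in positive and 10.47 ± 0.16 in negative cells (SD, n = 3 each), a difference of -0.50 (SE 0.22, limma adjusted p = 0.910). The pairs differed by -0.43, -1.13 and 0.05, and without positive array 2 the difference was -0.28.

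Ier2, a short-lived nuclear protein gene induced by growth factors, had log2 levels of 8.53, 8.56 and 8.68 in positive arrays 1, 2 and 3, against 8.68, 9.11 and 8.61 in negative arrays. Negative array 2 alone stood above the others. The difference of -0.21 (SE 0.16, limma adjusted p = 0.910) was -0.06 without that array. Ier3, a stress-induced gene linked to cell survival, had levels of 6.997, 7.71 and 7.38 in positive arrays, against 7.16, 7.76 and 8.07 in negative arrays. Array 1 was the lowest of each group, and the pair of number 3 was the farthest apart, at -0.69. The difference of Ier3 was -0.30 (SE 0.27, limma adjusted p = 0.917), and array weights took it to -0.77 (adjusted p = 0.0930). Leaving out negative array 3 gave -0.10, and leaving out negative array 1 gave -0.55.

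The feedback genes differed least between the groups beside Jun. Dusp1, the phosphatase that inactivates ERK, p38 and JNK, had log2 levels of 12.31, 12.30 and 12.09 in positive arrays 1, 2 and 3, against 12.20, 12.71 and 12.39 in negative arrays. Negative array 2 was the highest and positive array 3 the lowest, and the groups overlap. The difference was -0.20 (SE 0.16, limma adjusted p = 0.915), with pairs at 0.11, -0.42 and -0.30, and -0.06 without negative array 2. Zfp36, which encodes tristetraprolin, had levels of 8.65, 9.17 and 8.70 in positive arrays, against 8.53, 9.50 and 8.67 in negative arrays. Array 2 was the highest of both groups. The difference was -0.06 (SE 0.28, limma adjusted p = 0.985). It was 0.24 without negative array 2 and 0.0768 without both arrays of number 2.

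**Figure D2:**
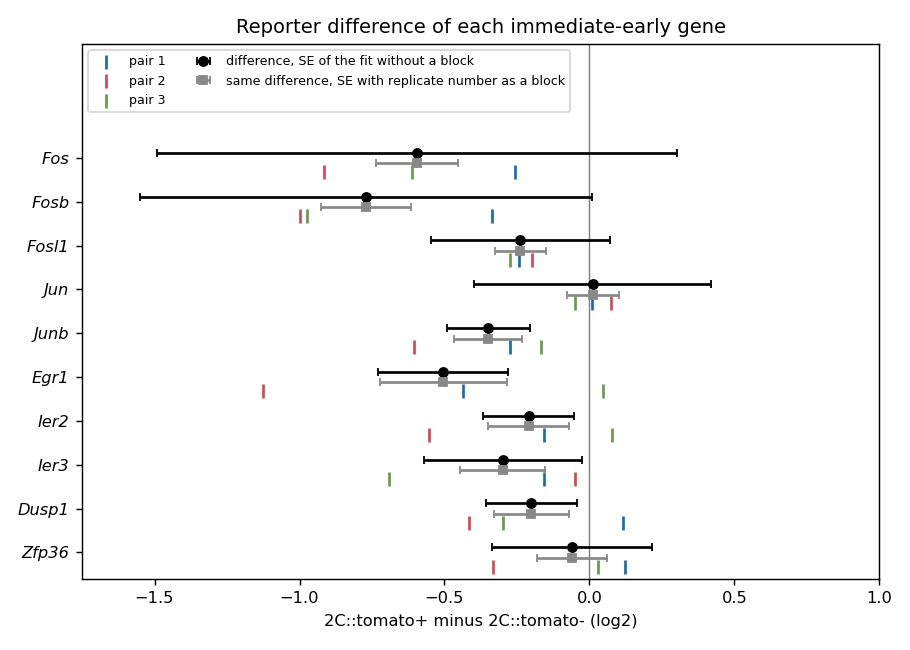
Log2 difference between positive and negative cells for each gene, with its standard error from the unblocked fit (black) and from the fit blocked by number (grey); coloured ticks are the 3 same-numbered pairs. The grey bars of Fos, Fosb and Jun are much shorter than the black ones, and the ticks of Fos, Fosb, Fosl1, Junb and Ier3 all lie below 0.

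Comparing within replicate numbers narrowed the errors of the members that vary by number, and still no member passed. Members lower in all 3 pairs were Fos, Fosb, Fosl1, Junb and Ier3, 5 of 10, against 23.7% of all genes. None was higher in all 3 pairs, against 15.1%. In the fit blocked by replicate number the standard error of Fos became 0.14 and that of Fosb 0.15, and both had the limma adjusted p of 0.396. Before adjustment the block gave a p under 0.05 for 4 members, Fos, Fosb, Fosl1 and Junb, all lower, and for 12% of all genes, 6.61% lower, but 0 genes passed after adjustment (smallest adjusted p 0.363). By pair, 7, 9 and 7 members lay lower in pairs 1, 2 and 3, against 54.3%, 59.1% and 51.4% of all genes. The members' medians were -0.20, -0.48 and -0.22 in those pairs. Array weights, without the block, moved the differences of Fosl1, Junb, Egr1 and Ier2 to -0.10, -0.23, -0.27 and -0.046. With both arrays of number 2 left out, Junb was at -0.22, Egr1 at -0.19, Ier2 at -0.039 and Dusp1 at -0.093.

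Fos, Fosb and Jun were higher, and Fosl1 lower, in replicate number 2 than in numbers 1 and 3, and Zfp36 was higher than in number 1. The comparison by number used 1 positive and 1 negative array of each number, with the reporter group as a term, and was run as a limma contrast adjusted over all genes. Its errors rest on how unevenly the reporter difference varied across numbers. If same-numbered arrays share a culture or a sort, these p-values do not measure the spread between cultures or sorts. For replicate 2 minus 1, 4 members passed higher and 1 lower, against 5.68% of genes higher and 2.94% lower. For replicate 2 minus 3, 3 members passed higher and 1 lower, against 4.82% and 2.19%. Between numbers 1 and 3, 0 members and 0 genes passed (smallest adjusted p 0.122, while before adjustment 3.23% of genes had a p under 0.05 and were higher and 2.75% lower). Fos, Fosb and Jun were at least 1 log2 unit higher in replicate 2 than in replicate 1, as were 2.28% of genes, and Fos and Fosb than in replicate 3, as were 2.32%. By the F test over the 3 numbers Fos, Fosb, Jun and Fosl1 passed, 4 of 10, against 5.65% of genes. Without the reporter term Fosl1 did not (adjusted p = 0.0510).

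Fos was 5.64-fold higher in replicate 2 than in replicate 1, a log2 difference of 2.496 (SE 0.17, limma adjusted p = 0.00746), the 9th largest rise of all genes. Against replicate 3 it was 5.56-fold higher (2.48, SE 0.17, limma adjusted p = 0.0109). The rise was present in both sorted groups: array 2 exceeded array 1 by 2.17 in positive and by 2.83 in negative cells. Fosb was 4.31-fold higher than in replicate 1 and 4.55-fold higher than in replicate 3 (log2 2.11 and 2.19, SE 0.19, limma adjusted p = 0.00914 and 0.0115), with 1.78 over array 1 in positive and 2.44 in negative cells. Replicate 1 minus replicate 3 was -0.02 for Fos (SE 0.17) and 0.08 for Fosb (SE 0.19), both smaller than their errors.

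Jun was 2.35-fold higher in replicate 2 than in replicate 1 and 1.91-fold higher than in replicate 3 (log2 1.23 and 0.94, SE 0.11, limma adjusted p = 0.00911 and 0.0164). Its rise over array 1 was nearly equal in the groups, 1.26 in positive and 1.20 in negative cells. Fosl1 fell in replicate 2 by 0.95 on the log2 scale against replicate 1 (SE 0.11, limma adjusted p = 0.0130) and by 0.55 against replicate 3 (limma adjusted p = 0.0417). The second call was lost without the reporter term (adjusted p = 0.112), with array weights (0.0647) and with a trended robust prior (0.0549). Zfp36 was 1.67-fold higher than in replicate 1 (log2 0.74, SE 0.15, limma adjusted p = 0.0395), and at 0.65 it did not pass against replicate 3 (limma adjusted p = 0.0594). Its call against replicate 1 was lost without positive or negative array 3 (adjusted p = 0.0825 each). Both arrays of replicate 2 lay above all other 4 for 4 members, Fos, Fosb, Jun and Zfp36, against 17.8% of genes, and below them for 1 member, Fosl1, against 21.8%. Both arrays of replicate 1 lay above the other 4 for Fosl1 (9.34% of genes) and below them for Jun, Ier3 and Zfp36 (7.44% of genes). Replicate 3 had 0 members above and 0 below, against 6.82% and 6.47% of genes.

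The other 5 members did not pass in any contrast between numbers on all 6 arrays. Without negative array 2, Ier3 (0.85, limma adjusted p = 0.0149) and Junb (-0.43, 0.0461) passed for replicate 2 minus 1 and Egr1 (-0.76, 0.0185) for replicate 2 minus 3. Without positive array 2, Ier2 passed for replicate 2 minus 1 (0.49, limma adjusted p = 0.0440). Ier3 differed by 0.66 between replicates 2 and 1 (SE 0.18, limma adjusted p = 0.0796) and by 0.01 between replicates 2 and 3, since its low arrays were both of number 1. Dusp1 and Ier2 lay 0.25 and 0.23 above replicate 1 in replicate 2, with SE 0.16 and 0.17, and the excess came from negative array 2: in the positive cells array 2 minus array 1 was -0.02 for Dusp1 and 0.03 for Ier2, against 0.51 and 0.43 in the negative cells. Junb (-0.24, SE 0.14) and Egr1 (-0.10, SE 0.27) lay below 0, and positive array 2 was the lowest of its group for both. Array 2 minus array 1 was -0.40 in positive and -0.07 in negative cells for Junb, and -0.44 in positive and 0.25 in negative cells for Egr1. Without positive array 2 the difference of Junb was -0.046 and that of Egr1 0.37.

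These calls rest on few arrays. Without positive array 1 or negative array 1, 0 members passed for replicate 2 minus 1, and the adjusted p of Fos was 0.0734 and 0.0920. The F test likewise passed 0 members there, with Fos at 0.0526 and 0.0534, and lost Fosl1 without positive or negative array 3 and Jun without positive array 3. Without positive array 3, 0 members passed for replicate 2 minus 3, with Fos at 0.0993, and without positive array 1, negative array 1 or negative array 3 only Fos and Fosb passed there. Leaving out positive or negative array 2 kept the calls of Fos, Fosb, Jun and Fosl1 in both contrasts. When all 35556 probesets, named or not, were tested together, 0 passed and Fos had an adjusted p of 0.0699 and 0.0945 in these contrasts. The log2 differences of Fos lay between 2.24 and 2.75 in these 2 contrasts under all settings run.

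**Figure D3:**
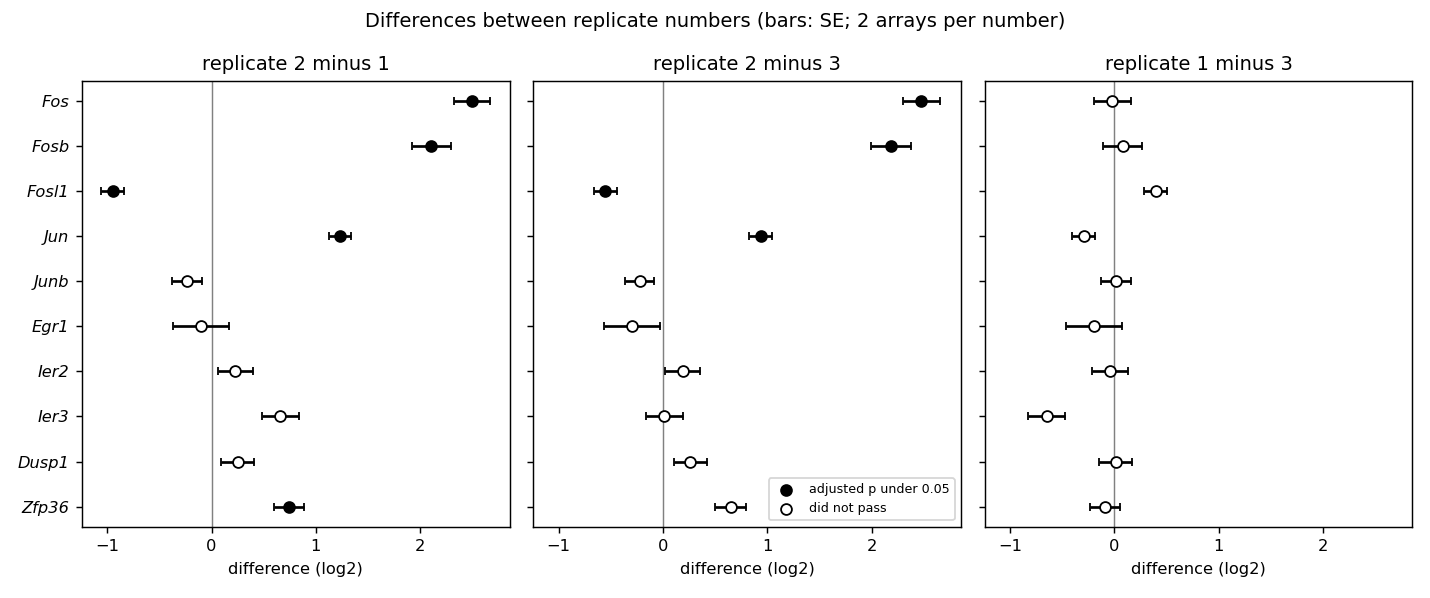
Log2 difference of each gene between replicate numbers, with standard errors; filled points passed at an adjusted p under 0.05 over all genes and open points did not. Fos and Fosb lie beyond 2 in the first 2 panels and near 0 between replicates 1 and 3.

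Among 38 other immediate-early genes, 9 passed higher and 2 lower for replicate 2 minus 1, where 5.68% of all genes were called higher and 2.94% lower. For replicate 2 minus 3, 8 passed higher and 1 lower, where 4.82% and 2.19% of all genes were, with list medians of 0.24 and 0.33 against -0.06 and -0.04 over all genes. Atf3, a stress-induced factor that can pair with Jun, had log2 levels of 8.80 in positive and 8.94 in negative array 2, against 7.64 to 7.89 in the other 4 arrays. It rose by 1.10 over replicate 1 (SE 0.13, limma adjusted p = 0.0146). Btg2, an antiproliferative gene, rose by 1.13 (SE 0.19, limma adjusted p = 0.0289). Myc, an early growth gene that ES cells also need for self-renewal, went the opposite way. It stood at 9.24 in positive and 10.27 in negative array 2, against 11.51 to 11.68 in the other arrays, a difference of -1.84 (SE 0.24, limma adjusted p = 0.0164). Nr4a1 also passed lower, at -0.80 (SE 0.11, limma adjusted p = 0.0185), and at -0.08 it did not pass against replicate 3. For replicate 2 minus 1, 24 of the 38 lay above 0 and 14 below.

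Between positive and negative cells, 0 of these 38 passed, 18 lay higher and 20 lower, and the list median was -0.01. Btg2 had the largest difference of the list at 0.62 (SE 0.44), with 9.58, 10.998 and 9.42 in positive arrays, against 9.10, 9.93 and 9.10 in negative arrays.

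Of 13 measured partners and other subunits of AP-1, 2 passed higher for replicate 2 minus 1 and 0 passed lower. Of all genes, 5.68% passed higher and 2.94% lower. The list members that passed were Atf3 and Fosl2, which encodes Fra-2 and rose by 0.56 (SE 0.11, limma adjusted p = 0.0415). Between positive and negative cells 0 passed and the largest difference was that of Atf2, a CREB-related partner of Jun, at 0.37 (SE 0.17). Of 14 measured upstream kinases and transcription factors, 0 passed for replicate 2 minus 1. For replicate 2 minus 3, 1 passed higher and 0 lower, against 4.82% and 2.19% of all genes. It was the kinase gene Mapk8, which encodes JNK1, by 0.71 (SE 0.12, limma adjusted p = 0.0315). Between positive and negative cells Mrtfb, a coactivator of SRF, had the largest difference of that list at 0.50 (SE 0.15) and did not pass.

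Of the 12 feedback regulators, 1 passed higher and 2 lower for replicate 2 minus 1, where 5.68% and 2.94% of all genes did. The list median was -0.24, against -0.06 over all genes. Spry4, an inhibitor of receptor tyrosine kinase signalling, had levels of 10.23 in positive and 10.68 in negative array 2, against 11.64 to 12.08 in the others. It fell by 1.56 (SE 0.13, limma adjusted p = 0.00805). Zfp36l1, a paralogue of Zfp36, fell by 0.76 (SE 0.11, limma adjusted p = 0.0193), while Zfp36 itself rose. Dusp5, a nuclear ERK phosphatase, rose by 0.58 (SE 0.12, limma adjusted p = 0.0453). For replicate 2 minus 3, 2 of the list passed higher and 2 lower, against 4.82% and 2.19% of all genes. There 6 lay above 0 and 6 below, and the median was -0.08, against -0.04 over all genes. Spred1, an inhibitor of Ras signalling, had the largest reporter difference of the list, -0.60 (SE 0.19), and did not pass.

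Among textbook targets of AP-1 and Egr1, 13 were measured and 0 passed higher and 2 lower for replicate 2 minus 1. Of all genes, 5.68% passed higher and 2.94% lower. The targets passing lower were Plaur, the urokinase receptor gene, at -0.82 (SE 0.11, limma adjusted p = 0.0176) and Ccnd1, which encodes cyclin D1, at -0.77 (SE 0.13, limma adjusted p = 0.0260). Against replicate 3 Plaur was at -0.02 and did not pass. Heat-shock genes, which rise with Fos and Jun in dissociated tissue, gave 0 of 9 higher and 1 lower in the same contrast. That one was Hsph1, a chaperone gene of the HSP110 family, at -0.53 (SE 0.11, limma adjusted p = 0.0430). Hspa1a, the inducible Hsp70 gene, was at 8.98, 10.47 and 9.91 in positive arrays 1, 2 and 3, against 8.81, 8.13 and 9.26 in negative arrays, so that it was highest in positive array 2 and lowest in negative array 2.

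Contractile targets of SRF were higher in replicate 2 as well. Of 13 measured, 7 passed higher and 0 lower for replicate 2 minus 1, with a median of 0.90. Of all genes, 5.68% passed higher and 2.94% lower there. For replicate 2 minus 3, 6 passed higher and 0 lower, with a median of 0.77, against 4.82% and 2.19% of all genes. Acta2, smooth muscle actin, rose by 2.96 (SE 0.38, limma adjusted p = 0.0153), and Tagln, transgelin, by 2.85 (SE 0.35, limma adjusted p = 0.0146). Cald1, caldesmon, rose by 1.97 (SE 0.18, limma adjusted p = 0.00911). Between positive and negative cells 0 of the 13 passed and 10 lay lower, as did 60.2% of all genes.

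**Figure D4:**
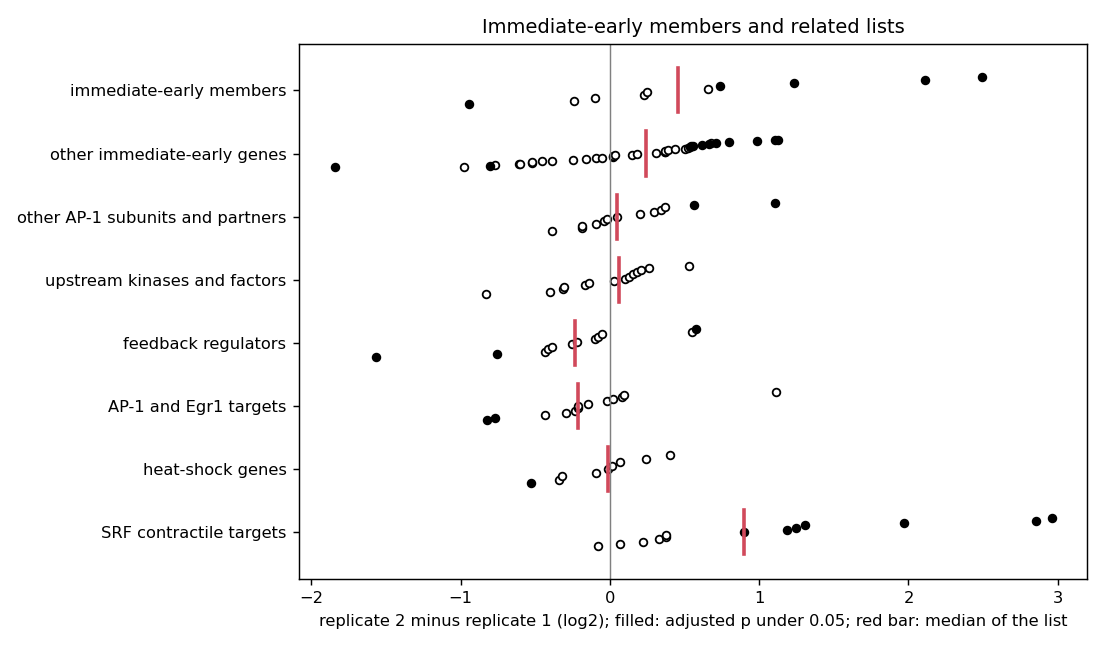
Log2 difference of replicate 2 minus replicate 1 for the 10 immediate-early genes and the measured genes of 7 related lists; filled points passed over all genes and red bars are list medians. The contractile targets of SRF and the immediate-early members have the highest medians, 0.90 and 0.45, and heat-shock genes sit around 0.

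Some markers of other cells differed by replicate number as well. Of 8 trophectoderm markers 3 passed higher and 1 lower for replicate 2 minus 1, where 5.68% and 2.94% of all genes did. The 3 were the keratin genes Krt7, Krt8 and Krt18 (1.75, 1.98 and 1.87), and Elf5 passed lower (-0.64). Cdx2, Eomes, Tfap2c and Hand1 (0.17, 0.35, 0.11 and -0.04) did not pass. With the keratins included, the list averaged 9.53 in positive and 9.44 in negative array 2. The other positive arrays averaged 8.61 to 8.78 and the other negative arrays 8.80 to 9.08. Of 11 feeder fibroblast markers 1 passed, Pdgfrb, which was higher (1.32). That list averaged 7.10 to 7.45 per positive and 7.29 to 7.36 per negative array. Of 8 primitive endoderm markers 1 passed higher and 2 lower, at 7.50 to 7.83 per positive and 7.88 to 8.20 per negative array. Of 9 ES cell markers 8 lay below 0 for replicate 2 minus 1, with a median of -0.33 and 1 passing lower. For replicate 2 minus 3, 7 lay below 0, with a median of -0.35 and 2 passing lower. Over all genes the medians were -0.06 and -0.04, and 2.94% and 2.19% passed lower. The mean of the ES cell markers was lowest in array 2 of each group, at 11.89 in positive and 12.08 in negative cells. The part of these cells in the immediate-early differences was not tested, and on bulk arrays a change in cell numbers and in RNA per cell cannot be told apart.

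The genes whose pattern over the 6 arrays was most like the mean of the 10 members were Tgfb1i1 (Pearson r 0.998), Cmtm8 (0.995), Gatm (0.993), Arap3 (0.991), Macroh2a2 (0.991), Hsd11b2 (0.990), Hoxa5 (0.990) and She (0.990), of 2264 genes with a range of at least 1 log2 unit. This likeness is a description over 6 arrays that share replicate numbers, with no test. The mean it was set against, each member centred on its own mean, was -0.32, 0.15 and -0.31 in positive arrays 1, 2 and 3, against -0.16, 0.66 and -0.02 in negative arrays. It was highest in array 2 of each group and lower in every positive array than in the negative array of the same number. Fos and Fosb, whose ranges of 3.24 and 3.17 were the widest of the members, weigh most in it and in the likeness. The mean of the other 8 members was -0.18, -0.08 and -0.09 in positive arrays 1, 2 and 3, against -0.05, 0.32 and 0.08 in negative arrays, so that positive array 2 was level with positive array 3.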

How the data were processed

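Total RNA (100 ng per sample) of sorted mouse ES cells was hybridised to Affymetrix whole-transcript arrays, 3 positive and 3 negative. The deposited values are log2 expression per probeset, 1 column per array, made by the authors with RMA in Affymetrix Expression Console, per the submitters' processing notes. RMA corrects background, normalizes quantiles and summarises probes, which can understate differences of dim probesets. Software versions and the authors' genome build: not given in the sources used here. Array medians were 6.95 to 7.04. With 6 arrays, precision is limited by their number.

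Platform annotation gave 21789 probesets 1 symbol, 1621 several, and 12146 were not listed. Where a gene had several probesets (999 genes), its brightest on average stood for it. Old symbols in the lists were updated through RefSeq synonyms. Limma 3.58.1 in R 4.3.3 (2-sided, Benjamini-Hochberg over 19938 genes, threshold 0.05) compared the reporter groups without a block, and replicate numbers with the reporter group as a term. The fits were run on simulated data with 200 changed genes and the residual spread of the blocked fit. No effect of replicate number was simulated, so that run does not show how the unblocked reporter fit performs on these arrays. Deviations from the group means correlated between same-numbered arrays at r = 0.546, 0.553 and 0.457 for numbers 1, 2 and 3. Between arrays of different numbers r was -0.519 to 0.202. The labels do not say what a number marks. The main reporter fit therefore has no block, and the blocked fit is given beside it. All members are named; of each related list up to 3 genes past a test, otherwise the one with the largest difference; and the 8 genes nearest in pattern. The members, lists and tests were chosen with earlier results of these data known. TGACATCA was added after the sequences were seen.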

Additional observations from a re-analysis of the deposited data

Results flagged for a closer look

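Among the members and the genes named from the 7 related lists, 5 had an array of 1 replicate number that was the highest of its group in one sorted group and the lowest in the other. Only these genes were searched, and the differences were not tested, since each group holds 1 array per number. Egr1 in array 2 stood 0.66 below the mean of the other arrays of its group in positive cells (-0.66) and 0.27 above it in negative cells, a gap of -0.93, and in array 3 it stood 0.66 above in positive and -0.17 in negative cells, a gap of 0.83. Ier2 in array 3 was at 0.14 in positive and -0.29 in negative cells (gap 0.43), and Dusp1 in array 1 at 0.12 in positive and -0.35 in negative cells (gap 0.47). Outside the members, Hspa1a in array 2 was at 1.02 in positive and -0.90 in negative cells (gap 1.92), and Mafg in array 2 at -0.42 in positive and 0.20 in negative cells (gap -0.62).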

How the results depend on the processing

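Without the replicate block 0 genes passed between positive and negative cells, and 0 with it, and 0 under each other setting run. For the 3 numbers together (F test), replicate 2 minus 1 and replicate 2 minus 3, 0 passed when all probesets were tested, against 1127, 1718 and 1399 genes as reported. Array weights gave 1126 for replicate 2 minus 1 and 14 for replicate 1 minus 3, the trended robust prior 2 for replicate 1 minus 3, and the fit without a reporter term 914 for replicate 2 minus 3 and 1 for replicate 1 minus 3. Leaving out 1 array at a time gave 0 to 4571 genes (F), 0 to 4715 (replicate 2 minus 1), 0 to 4593 (replicate 2 minus 3) and 0 to 78 (replicate 1 minus 3). The members' medians then ranged over -0.32 to -0.0581 (positive minus negative), 0.31 to 0.63 (replicate 2 minus 1), 0.15 to 0.43 (replicate 2 minus 3) and -0.24 to 0.0578 (replicate 1 minus 3). The reporter difference changed sign for Jun (second quantile normalization -0.043, array weights -0.12, both arrays of number 2 left out -0.0203, 1 array left out -0.37 to 0.36) and Zfp36 (0.0206 with array weights, 0.0768 without number 2, -0.24 to 0.24). With 1 array left out it also did for Fos (-1.34 to 0.31), Fosb (-1.43 to 0.0026) and Fosl1 (-0.50 to 0.0016). With both arrays of number 2 left out, Fos, Fosb and Fosl1 kept their sign (-0.44, -0.66 and -0.26). Between numbers, sign changes were limited to differences that had not passed. For replicate 1 minus 3, 1 array left out gave Fos -0.27 to 0.23, Fosb -0.25 to 0.40, Junb -0.12 to 0.15, Egr1 -0.61 to 0.22, Ier2 -0.26 to 0.17, Dusp1 -0.22 to 0.25 and Zfp36 -0.23 to 0.0464, and median centring gave Junb -0.0061 and Dusp1 -0.0053. For replicate 2 minus 1 it gave Egr1 -0.56 to 0.37 and Ier2 -0.0274 to 0.49, and for replicate 2 minus 3 Egr1 -0.76 to 0.17, Ier2 -0.0692 to 0.44 and Ier3 -0.28 to 0.31, with Ier3 at -0.0248 after a second quantile normalization. The causes were not tested. Of the values for single genes, 633 kept direction and side of the threshold, 50 no longer passed, 12 newly passed and 35 changed sign. With an array left out, a lone array of a number is assumed to vary like the others.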
